A study of Mus musculus with 2 samples.

Results

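Ubd, Serpina1e, Hamp, Oit1, Pglyrp1 and Dclk1 are 6 genes, none of them a mucin gene, whose transcripts were concentrated in the high endothelial cells of mouse lymph nodes. They were chosen from these same libraries because of that concentration, and each symbol matched 1 row of the 32285 gene rows in each library. High endothelial cells were the 296 cells, of 9275 used, with at least 20 UMIs of Glycam1 and at least 10 UMIs of Ccl21a (UMIs, unique molecular identifiers, mark single captured RNA molecules). The level of a gene is given in CPM, its UMIs per 1000000 gene UMIs summed over a set of cells. Since the genes were picked for standing high in these cells, their excess over the other subsets is described below without a test, and tests were kept to genotype and tissue.

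The cells were endothelial cells sorted from mouse lymph nodes after beads had removed CD45-positive blood cells, and the transcripts were counted in 2 droplet libraries. Each library mixed 4 hashtagged pools: peripheral and mesenteric nodes of wild-type (WT) mice, and the same kinds of nodes of Xbp1-KO mice. The animals of all 4 pools had received tamoxifen, WT included. The labels name no Cre line, age or sex and do not say how many animals went into a pool. The p-values over the 2 sums of each group (1 per library) therefore rest on a spread between sums, not between animals. In the edgeR fit that spread was moderated towards the spread of all genes. XBP1 is the transcription factor that widens the secretory pathway under endoplasmic reticulum stress, and the study asked about its part in mucin production.

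High endothelial cells line the postcapillary venules through which lymphocytes enter a lymph node from blood. They are tall, secretory cells that carry sulfated sialomucins such as Glycam1, which bind L-selectin on lymphocytes, and they present the chemokine Ccl21. The 6 genes encode proteins of unrelated kinds, among them a ubiquitin-like modifier, secreted proteins of blood plasma and innate immunity, and a kinase.

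The gate kept 196 cells of library 1 and 100 of library 2, and they were unevenly spread over the pools. Peripheral nodes gave 3 WT and 29 Xbp1-KO cells in library 1, and 5 and 3 in library 2. Mesenteric nodes gave 67 WT and 97 Xbp1-KO cells in library 1, and 39 and 53 in library 2. The 8 sums of these cells held 17973 to 899970 UMIs, and the 3 smallest, with 3, 5 and 3 cells, were all from peripheral nodes. Of the 296 cells, 280 fell in 3 sub-clusters named HE-like from markers that include Glycam1, and 0 in a cluster named lymphatic. Another 16 fell elsewhere, 7 of them in a lymphocyte cluster and 3 in an unnamed cluster led by Prtn3, Plac8 and Mpo. Prtn3 and Mpo are neutrophil granule genes. Of the markers that the gate did not use, Chst4, Fut7, Enpp2, Madcam1 and Ch25h were each counted in over 10% of the gated cells, and Spon2 was at 0. The median was 9125 UMIs per gated cell and 3678.5 per other endothelial cell, and 3 cell barcodes occurred in both libraries.

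The pools differed within a genotype in ways that the genotype labels do not explain. Xist, the RNA of the inactive X chromosome, was counted in 82.5% (peripheral) and 73.1% (mesenteric) of all Xbp1-KO cells in library 1, against 1.29% and 1.77% of its WT cells. In library 2 the order was turned round, at 85.4% and 76.8% of WT and 0.608% and 0.114% of Xbp1-KO cells. Ddx3y, a gene of the Y chromosome, showed the reverse. It was counted in 27.7% and 22.6% of WT cells of library 1 and 31.8% and 31.9% of Xbp1-KO cells of library 2. The other 4 pools had it in at most 0.349% of cells. Glycam1 in the gated cells followed the same division: 272332 and 157704 CPM in the Xbp1-KO pools of library 1 against 29575 and 58989 in its WT pools, and 294577 and 131738 CPM in the WT pools of library 2 against 51132 and 51761 in its Xbp1-KO pools. By Xist and Ddx3y, the 2 genotypes of a library differed in sex, in opposite directions in libraries 1 and 2. Within a library, genotype and sex cannot be told apart. The part of this division in the genotype comparisons below was not tested. Xbp1 itself was at 483 and 384 CPM in WT mesenteric and 231 and 307 CPM in Xbp1-KO mesenteric high endothelial cells of libraries 1 and 2. In peripheral cells it was at 216 and 373 CPM in WT and 224 and 111 CPM in Xbp1-KO, from 2 to 54 UMIs, with 4 UMIs in 3 cells behind the WT value of library 1. Over all cells, the share with Xbp1 was lower in Xbp1-KO than in WT in 4 of 4 pairs. It was 20.4% against 37.5% (peripheral) and 31.3% against 40.9% (mesenteric) in library 1, and 29.0% against 39.1% and 39.2% against 54.3% in library 2. A 3′ tag can lie outside the deleted stretch of Xbp1, so these counts do not check the labels.

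All 6 genes are protein-coding genes annotated on mm10, the build named in the submitters' processing notes. Coordinates are those of GENCODE M21 on that build, and sequences are those of RefSeq on GRCm38.p6. Ubd lies on the plus strand of chromosome 17 (chr17:37193892-37196095) and encodes FAT10, a ubiquitin-like protein induced by interferon-gamma and TNF that marks proteins for the proteasome. Serpina1e lies on the minus strand of chromosome 12 (chr12:103946931-103958975) and encodes an alpha-1-antitrypsin, a secreted serine protease inhibitor best known from liver. Hamp, on the minus strand of chromosome 7 (chr7:30942368-30944032), encodes hepcidin, the peptide hormone that makes cells take the iron exporter ferroportin off their surface. Oit1, on the minus strand of chromosome 14 (chr14:8348937-8378754), belongs to the FAM3 family of secreted cytokine-like proteins. Pglyrp1, on the plus strand of chromosome 7 (chr7:18871331-18890459), encodes a secreted protein that binds bacterial peptidoglycan and is stored in neutrophil granules. Dclk1, on the plus strand of chromosome 3 (chr3:55242364-55539068), encodes a microtubule-associated kinase that marks tuft cells in the gut.

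Near-identical relatives limit 2 of the 6 measurements. Of the 50-base words in the last 500 bases of the longest Serpina1e transcript, 16.4% recur exactly in another gene, mostly Serpina1d (8.20%) and Serpina1c (7.10%), and the share over the whole transcript is 35.6%. For Hamp, 16.6% of the words in its 410-base transcript recur in Hamp2. No such word of Ubd, Oit1, Pglyrp1 or Dclk1 recurs. Reads from the shared stretches cannot be told apart between the copies, so the counts of Serpina1e and Hamp are uncertain to that extent.

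The promoters of Hamp and Ubd are printed because they hold letters of motif types long studied at these genes: hepcidin is switched by BMP and STAT3 signals, and FAT10 by NF-kB. Each line gives the 250 bases before the RefSeq start, 5′ to 3′ on the gene's strand, chr7:30944030-30944279 for Hamp and chr17:37193642-37193891 for Ubd. Capitals mark GGCGCC, a BMP-response type of motif, and TTCNNNGAA, a STAT type, in Hamp, and GGGNNNNNCC, an NF-kB type, in Ubd.

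Hamp: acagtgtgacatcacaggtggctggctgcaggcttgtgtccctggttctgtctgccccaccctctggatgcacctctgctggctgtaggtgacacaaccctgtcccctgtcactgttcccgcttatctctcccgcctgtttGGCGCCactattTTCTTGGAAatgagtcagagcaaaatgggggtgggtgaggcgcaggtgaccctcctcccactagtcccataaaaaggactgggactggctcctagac

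Ubd: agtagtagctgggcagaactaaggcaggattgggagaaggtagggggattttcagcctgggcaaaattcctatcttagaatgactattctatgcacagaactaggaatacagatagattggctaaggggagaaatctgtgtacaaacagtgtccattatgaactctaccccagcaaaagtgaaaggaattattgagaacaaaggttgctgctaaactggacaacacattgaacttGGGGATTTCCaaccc

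In Hamp, GGCGCC lies 109 to 104 bases and TTCNNNGAA 97 to 89 bases before the start, with no overlap between them. In Ubd, GGGNNNNNCC lies 15 to 6 bases before it. Both strands were searched in 32851 RefSeq windows of that length, and GGCGCC occurred in 9.59%, TTCNNNGAA in 7.02% and GGGNNNNNCC in 45.8% of them. GGGNNNNNCC also occurred in windows of Serpina1e, Oit1 and Pglyrp1, and so in 4 of the 6 genes. CCACG, the core of an XBP1-type motif, and ACGTG and TATAAA were in none of the 7 windows of the 6 genes, against 28.3%, 16.6% and 12.4% of all windows. A match of letters shows no binding, and a missing match says only that those letters are not in the window.

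Across 18 subsets of at least 50 cells, 5 of the 6 genes had their highest level, by UMIs summed over both libraries, in the gated high endothelial cells. Ubd stood at 2457 CPM there and at 104 CPM over the 8798 other endothelial cells, a ratio of 23.7. Serpina1e stood at 941 against 23.9 CPM, a ratio of 39.4, and Oit1 at 259 against 8.13 CPM, a ratio of 31.8. Dclk1 was at 364 against 21.6 CPM and Pglyrp1 at 1085 against 82.1 CPM, ratios of 16.8 and 13.2. Over the 8 library and pool sums, small ones included, Dclk1 was higher in the HE-like cells outside the gate. Its mean was 454 CPM there and 364 CPM in the gated cells, and its median 363 and 355 CPM. Hamp was at 214 against 15.3 CPM, a ratio of 14.0, but its level was higher still, at 323 CPM, in the 180 cells of the HE-like sub-clusters that the gate left out. These ratios rest on values that chose the genes and are a description.

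The order below the high endothelial cells differed from gene to gene. The HE-like cells outside the gate were at 1366 CPM for Ubd, 512 for Serpina1e, 205 for Oit1, 856 for Pglyrp1 and 320 for Dclk1. Over sums of at least 10 cells, each library and pool taken apart, the range of these cells overlapped that of the gated cells for all 6 genes. Below them the level dropped. The next subset was an unnamed cluster of 486 cells led by Aqp1, Atp1b1 and Enpp2 for Ubd (202 CPM), Serpina1e (35.5 CPM) and Oit1 (10.1 CPM), and its ranges over sums overlapped those of the subsets that followed. It was also next for Hamp, at 37.8 CPM, where 1.03% of its cells held any Hamp. All of it lay in 2 of that cluster's 8 sums, the WT peripheral sum of library 1 (44 UMIs, 97.3 CPM) and the Xbp1-KO mesenteric sum of library 2 (23 UMIs, 303 CPM). Oit1 was the most restricted by this measure, with 15 of the 16 remaining subsets under 5 CPM, whereas Ubd was under 5 CPM in 1 of the 16.

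Pglyrp1 and Dclk1 each had another site of expression. Pglyrp1 was counted in 46.5% of the 1011 lymphatic ceiling-like cells (174 CPM, with sums from 138 to 283) and in 35.8% of the 523 lymphatic-like cells led by Igfbp5 and Nts (161 CPM). In the other named lymphatic subsets it was counted in 1.75% to 4.67% of cells. Dclk1 was at 156 CPM in the 119 mural and fibroblastic-like cells, where its sums ran from 55.1 to 302 CPM and reached into the range of the gated cells (266 to 404 CPM). Ubd was counted in 34.7% of the 352 lymphatic floor-like cells led by Ccl20 and Coch, at 140 CPM. Glycam1 stood at 15713 CPM in that subset, and Ubd came to 8.90 UMIs per 1000 Glycam1 UMIs there, 20.1 in the gated cells and 759 in the unnamed Aqp1 cluster. Glycam1 itself was counted in 28.2% to 66.3% of all cells of a pool, most of them outside the gate, and the part of free RNA in the low levels of the 6 genes outside the high endothelial cells was not tested.

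**Figure D1:**
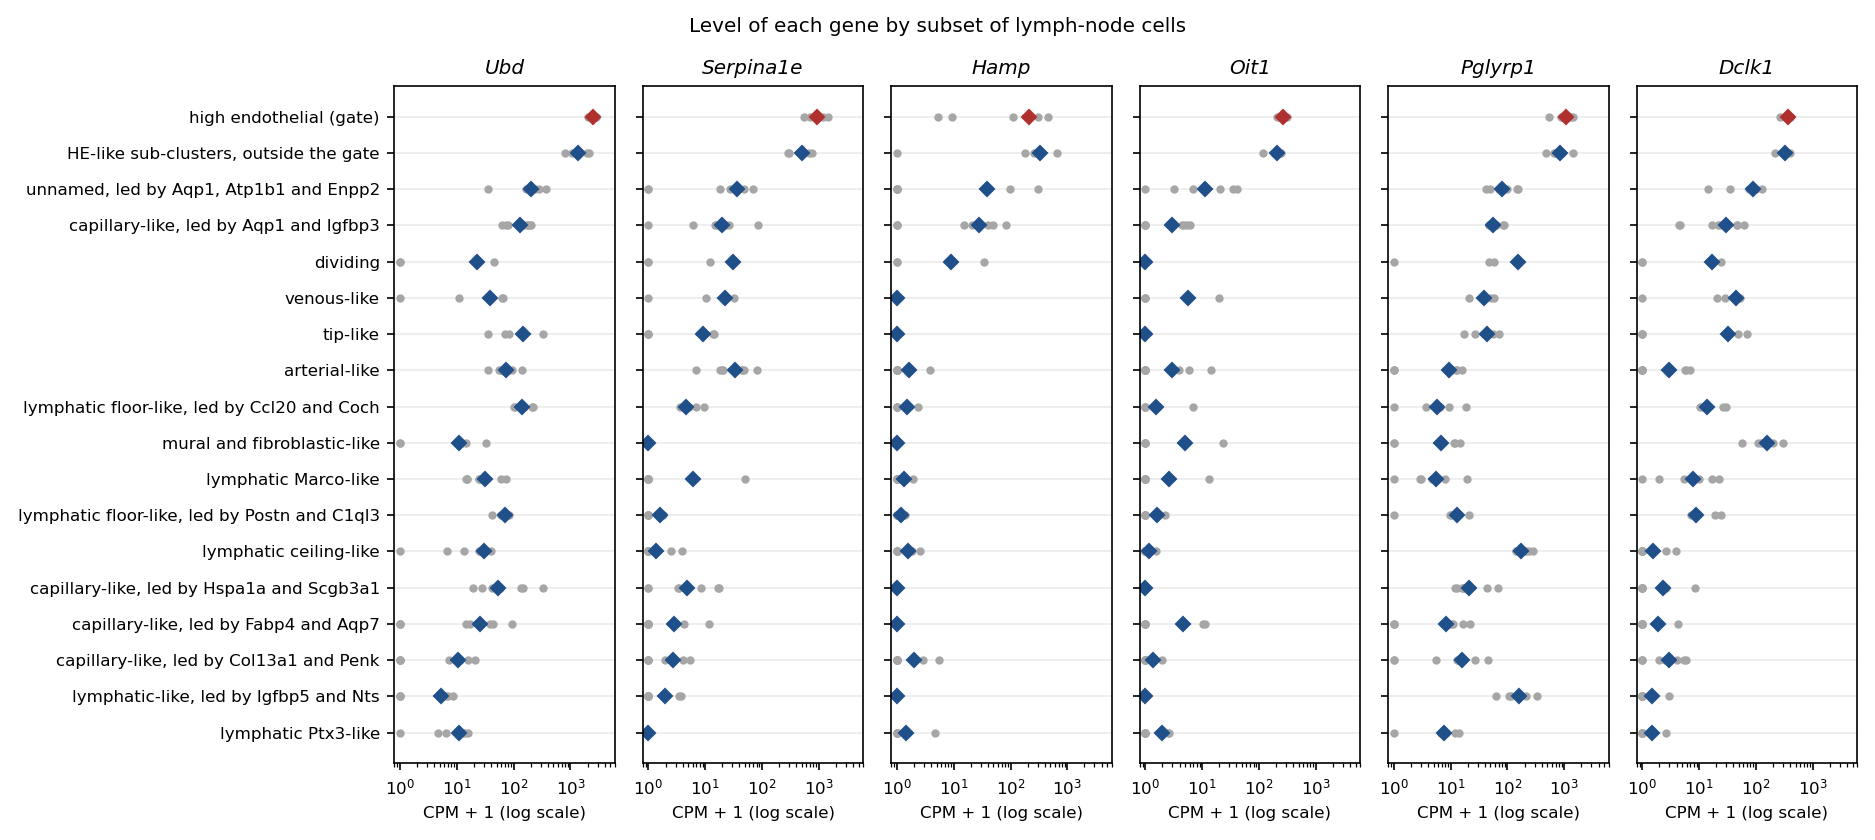
Level of each gene (CPM + 1, log scale) in the subsets of at least 50 cells. Diamonds are the sum over both libraries, red for the gated high endothelial cells, and grey dots are library and pool sums of at least 10 cells. The gated cells and the HE-like cells outside the gate lie to the right of all other subsets for every gene, by the sums over both libraries.

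All 6 genes were counted on both sides of the gate edge. The 20 cells just inside it, with 20 to 39 UMIs of Glycam1, were at 1623 CPM for Ubd, 706 for Serpina1e and 210.0 for Oit1. The 14 cells just outside it, with 10 to 19 UMIs of Glycam1 and enough Ccl21a, were at 995, 623 and 197 CPM in that order. For Hamp, Pglyrp1 and Dclk1 the cells just inside were at 165, 636 and 293 CPM, and those just outside at 153, 437 and 361 CPM. Hamp was counted in 10% of the cells just inside and 7.14% of those just outside, so its levels there rest on very few cells.

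Within the high endothelial cells, 5 of the genes were near-general and Hamp was rare. Ubd was counted in 99% of the gated cells, Pglyrp1 in 94.3%, Dclk1 in 86.1%, Serpina1e in 84.1% and Oit1 in 82.4%. The same shares in the other endothelial cells were 14.9%, 13.9%, 4.29%, 2.81% and 1.53%. Cells differ in depth, so all were also thinned to 2000 UMIs, which left out 2 gated and 1444 other cells. At that equal depth the shares of gated against other endothelial cells were 91.5% and 9.79% for Ubd, 76.5% and 9.31% for Pglyrp1, 64.3% and 2.04% for Serpina1e, 47.3% and 2.86% for Dclk1, and 38.1% and 0.897% for Oit1. In lymphatic Ptx3-like cells, where all 6 genes were low, the thinned share was at most 1.88%, for Ubd and Pglyrp1. In the other lymphatic subsets the thinned share of Ubd ran from 1.07% to 19.9%.

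Hamp was counted in 38 of the 296 cells, 12.8%, and in 0.523% of other endothelial cells (7.82% and 0.408% after thinning). The 13 cells with at least 10 UMIs of Hamp held 89.5% of its 611 UMIs in the gated cells, and the highest cell held 139. Cells with Hamp and cells without it had like depths, with medians of 9348.5 and 9091.5 UMIs. By contrast the median gated cell held 19 UMIs of Ubd, 7 of Pglyrp1, 6 of Serpina1e, 3 of Dclk1 and 2 of Oit1. A mean level of Hamp therefore rests on few cells, and that of the other genes on most of them.

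**Figure D2:**
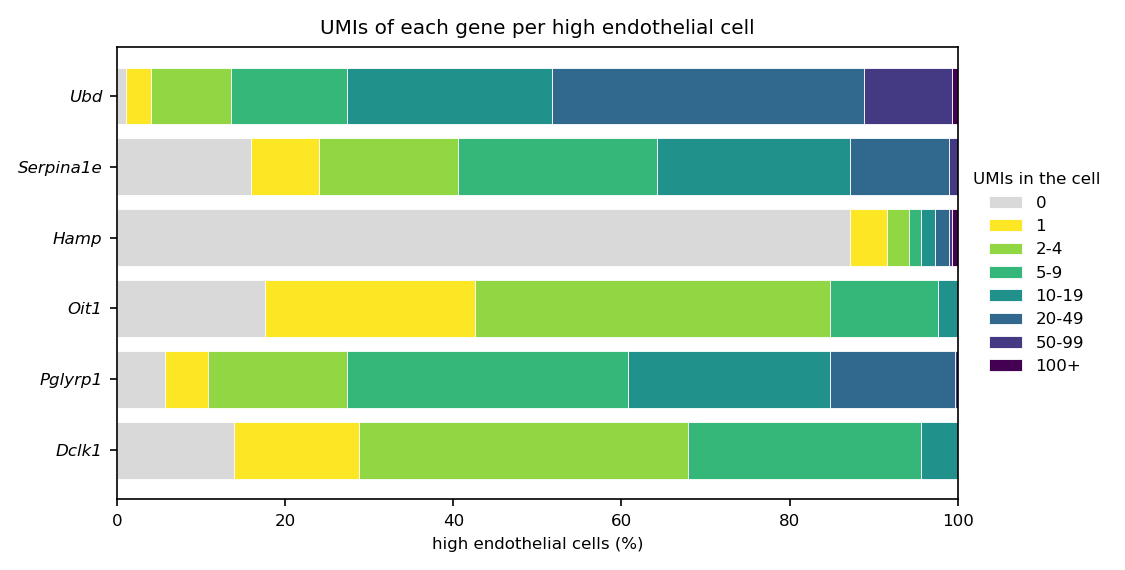
Share of the 296 high endothelial cells (x axis, %) by the number of UMIs of each gene in the cell (colour; grey is 0). Nearly all cells hold Ubd, and 12.8% hold any Hamp.

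Most of the gated cells carried several of the genes at once. All 5 genes other than Hamp were counted together in 177 cells (59.8%). By number, 29 cells held 3 of the 6 genes, 78 held 4, 162 held 5 and 24 held all 6. Among the other endothelial cells, 48 held all 5, and 199 held at least 3 of the 5, 132 of them in the HE-like sub-clusters. After thinning, Spearman's rho between pairs of the 6 genes across gated cells lay between -0.08 and 0.11 for all 15 pairs, which is too weak to read in counts this sparse.

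The level of Hamp differed between the HE-like sub-clusters, but the share of cells with it did not follow the level. Sub-cluster 2, whose leading genes were Hamp, Selp, Ackr1 and Ccl21a, had Hamp at 442 CPM in its 59 gated cells, all of it in 6 of them, against 168 CPM in the 176 gated cells of sub-cluster 1 and 138 CPM in the 45 of sub-cluster 3. Hamp was counted in 10.2% of the gated cells of sub-cluster 2, 14.2% of those of sub-cluster 1 and 13.3% of those of sub-cluster 3, so its higher level in sub-cluster 2 is carried by few cells. Ubd was at 2617, 2175 and 2450 CPM in sub-clusters 1, 2 and 3, and Oit1 at 253, 302 and 249.7 CPM. The members were left out of the genes used for clustering, but these differences between clusters of the same cells are a description.

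Genes most like each member over the 18 subsets were sought by Pearson's r of log2(CPM + 10), among 5319 genes with at least 50 UMIs in the gated cells. For Oit1 they were Lhx2 (0.98), Chst4 (0.98) and Rbm47 (0.98), for Serpina1e Snx20 (0.96), Fut7 (0.96) and Lhx2 (0.95), and for Hamp Syt1 (0.98), Fut7 (0.97) and Lhx2 (0.94). Chst4 and Fut7 encode a sulfotransferase and a fucosyltransferase that build the L-selectin ligand. The other three had lower coefficients: Ubd by 1810073O08Rik (0.92), Serpina1b (0.90) and Gm36756 (0.89), Dclk1 by Mfge8 (0.90), Fgfr2 (0.88) and Shroom3 (0.85), and Pglyrp1 by Aprt (0.86), Rplp0 (0.83) and 2210408F21Rik (0.81). The subsets come from the same libraries, so these are descriptions of likeness.

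Relatives and partners of the genes did not share their concentration as a rule. Of the serpins, Serpina1b was at 368 CPM in the gated cells, 9.15-fold its level in other endothelial cells, Serpina1d at 7.71 CPM, and Serpina1a and Serpina1c at 3 UMIs each. Hamp2, the second hepcidin gene, had 0 UMIs, as had Slc40a1, which encodes ferroportin, hepcidin's target. A count of 0 allows up to 1.05 CPM in these cells, from 3 UMIs. Bmp2, an endothelial inducer of hepcidin in liver, was at 15.1 CPM against 479 CPM in other endothelial cells, and Il6st, the shared receptor chain of IL-6 cytokines, was at 851 against 636 CPM. The immunoproteasome subunits Psmb8, Psmb9 and Psmb10, induced like Ubd by interferon-gamma, were at 0.753, 0.648 and 0.803 times their level elsewhere. Pglyrp2, Pglyrp3, Pglyrp4, Dclk3, Dcx and Fam3b had 0 UMIs, and Dclk2 had 6.

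Cell types known for these genes elsewhere were looked for by their markers in the gated cells. Of the neutrophil markers 7 of 8 were at 0 (among them S100a8, S100a9, Mpo and Elane, with the list summing to 0.701 CPM), of the hepatocyte markers 5 of 6 (Alb and Ttr among them, 1.75 CPM), of the tuft cell markers 6 of 6, and of the intestinal goblet cell markers 5 of 6 (Muc2 among them, 0.350 CPM). The lymphocyte list had 0 of 8 markers at 0 and summed to 96.0 CPM, with sums per library and pool from 0 to 137 CPM. Its part in the levels was not tested.

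Genotype and tissue were compared over the 8 sums of gated cells, 2 per group, with edgeR's quasi-likelihood test over 4880 genes and a Benjamini-Hochberg adjusted p under 0.05. All 6 genes were among those tested. Averaged over both tissues, 0 of the 6 differed between Xbp1-KO and WT, beside 0 of 4880 genes (0%), where 255 genes had an unadjusted p under 0.05. DESeq2 also called 0 genes, with 89 under an unadjusted 0.05. In peripheral nodes alone, 0 of 6 and 0 of 4880 genes (0%) differed, with 277 genes under an unadjusted 0.05 (DESeq2: 0 and 116). In mesenteric nodes alone, 1 of the 6, Hamp, was called among 9 of 4880 genes (0.184%). The genotype effect differed between the tissues for 0 of the 6 genes and for 1 gene of 4880 (0.0205%), the chemokine gene Cxcl10, named here after its value was seen. Between peripheral and mesenteric nodes, 1 of the 6, again Hamp, was called among 14 of 4880 genes (0.287%). Within a tissue the 2 libraries gave 2 sums a genotype, for which the smallest p of a two-sided exact permutation test is 0.333, so no single gene could pass such a test of the genotypes within a tissue.

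Ubd was high in every sum. It stood at 1835 and 1827 CPM in WT peripheral cells of libraries 1 and 2, at 2811 and 3171 in Xbp1-KO peripheral cells, at 2022 and 2341 in WT mesenteric cells, and at 2829 and 2314 in Xbp1-KO mesenteric cells. The Xbp1-KO peripheral sums lay above the WT peripheral ones, while the mesenteric groups overlapped. Of these peripheral sums 3 hold 3, 5 and 3 cells, and in the Xbp1-KO sum of library 2 a single cell held 37 of 57 UMIs. Without the highest cell of each sum the peripheral levels were 722 and 1350 CPM in WT and 2615 and 1727 CPM in Xbp1-KO cells. The log2 fold change of Xbp1-KO against WT was 0.27 ± 0.50 in mesenteric nodes (SE, n = 2 per group, edgeR adjusted p = 0.9998). The group means were 2572 ± 364 CPM in Xbp1-KO and 2182 ± 226 CPM in WT mesenteric cells (SD, n = 2). Between tissues the log2 fold change, peripheral against mesenteric, was -0.12 ± 0.36 (edgeR adjusted p = 0.954).

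Serpina1e varied by library. Library 1 gave 216 CPM in WT peripheral, 547 in Xbp1-KO peripheral, 865 in WT mesenteric and 697 in Xbp1-KO mesenteric cells. Library 2 gave 1249, 946, 1426 and 1167 CPM in the same order, higher in all 4 pools, so that the groups overlapped across libraries. Within each library and genotype it was lower in peripheral than in mesenteric cells, in 4 of 4 pairs, and in mesenteric nodes it was lower in Xbp1-KO than in WT cells in both libraries. A single cell held all 4 UMIs of the WT peripheral sum of library 1, and a single cell all 17 of the Xbp1-KO peripheral sum of library 2. With library as a block neither difference passed the threshold. The quasi-likelihood dispersion of Serpina1e was 4.11 of its own against 1.18 after moderation towards all genes. Its sums thus spread more than the test assumed. Its log2 fold change was -0.33 ± 0.48 for Xbp1-KO against WT in mesenteric nodes (edgeR adjusted p = 0.9998) and -0.47 ± 0.36 for peripheral against mesenteric nodes (edgeR adjusted p = 0.769).

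Among the gated cells, of which 256 of 296 were mesenteric, Hamp was counted mostly in mesenteric nodes. The Xbp1-KO mesenteric sums held 302 and 457 CPM (272 and 271 UMIs) in libraries 1 and 2, and the WT mesenteric sums 111 and 4.39 CPM (64 and 2 UMIs). The peripheral sums held 8.29 CPM (2 UMIs) in Xbp1-KO cells of library 1 and 0 in the other 3. Both Xbp1-KO mesenteric sums lay above both WT ones, and all 4 mesenteric sums but the WT sum of library 2 lay above all peripheral ones.

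For the genotypes in mesenteric nodes, the log2 fold change of Hamp was 2.68 ± 0.47 (SE, n = 2 per group, edgeR adjusted p = 0.000113), with group means of 379.7 ± 109.5 CPM in Xbp1-KO and 57.8 ± 75.5 CPM in WT cells (SD). The share of cells with Hamp was 25 of 150 in Xbp1-KO, 16.7% (95% exact binomial interval 11.1 to 23.6), and 11 of 106 in WT, 10.4% (5.30 to 17.8). The intervals cover counting error over cells, which are not replicates of a genotype. By library the share was 21.6% in Xbp1-KO and 14.9% in WT cells of library 1, and 7.55% and 2.56% in library 2, higher in Xbp1-KO both times, and this difference was not tested. In Xbp1-KO cells of library 2 a single cell held 51.3% of the Hamp UMIs, and without the highest cell of each sum the levels were 244 and 227 CPM in Xbp1-KO and 66.6 and 0 CPM in WT mesenteric cells. The spread of Hamp itself was far above that which the test assumed, with a quasi-likelihood dispersion of 8.70 of its own against 1.25 after moderation towards all genes. The call held in 6 of 9 other settings (adjusted p from 1.41e-06 to 1.0) and was lost with DESeq2, after thinning, and in the HE-like sub-clusters, where the log2 fold change was 0.996. In the HE-like cells outside the gate, mesenteric Hamp was at 647 and 182 CPM in WT and 313 and 262 CPM in Xbp1-KO cells of libraries 1 and 2, lower in Xbp1-KO in library 1 and higher in library 2. The call was also lost when the WT mesenteric sum of library 2 was left out (log2 fold change 1.79). Leaving out the Xbp1-KO peripheral sum of library 1 or that of library 2 lost it too, although those 2 fits still hold every mesenteric sum. Within single libraries, which allow no test, the log2 fold change was 1.64 in library 1 and 6.40 in library 2. In each library the genotypes also differed in Xist and Ddx3y.

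For the tissues, Hamp was counted in 36 of 256 mesenteric and 2 of 40 peripheral high endothelial cells. All 13 cells with at least 10 UMIs of Hamp, which held 547 of its 611 UMIs, were mesenteric. The values below thus rest on few cells with much Hamp, and on 40 cells on the peripheral side. In Xbp1-KO cells of both libraries the level was 47.1 times as high in mesenteric as in peripheral nodes (95% exact interval 13 to 390, from 543 and 2 UMIs), and 36.5 times in library 1 alone (9.99 to 303). In WT cells pooled over libraries, with 66 mesenteric and 0 peripheral UMIs, it was at least 1.54-fold higher in mesenteric nodes, taking 3 UMIs over the group as the floor. The same floor gave 0.687 within library 1 (64 and 0 UMIs) and 0.0785 within library 2 (2 and 0 UMIs). Neither library alone thus shows a difference in WT cells. These intervals cover counting error only. edgeR gave an adjusted p of 9.01e-05 with a fitted log2 fold change of -6.32 ± 1.13 for peripheral against mesenteric nodes, a size that depends on how counts of 0 are treated. The call held in 6 of 9 other settings (adjusted p from 8.45e-06 to 0.9997) and was lost with DESeq2, after thinning, and with hashtags assigned by the ratio of their counts. It was lost without the WT mesenteric sum of library 1 (edgeR adjusted p = 0.806) and without the Xbp1-KO peripheral sum of library 1 (0.183) or library 2 (0.405). Over all genes the median log2 fold change between tissues was -0.27, and it was -0.35 without TMM scaling and -0.16 with DESeq2's size factors.

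**Figure D3:**
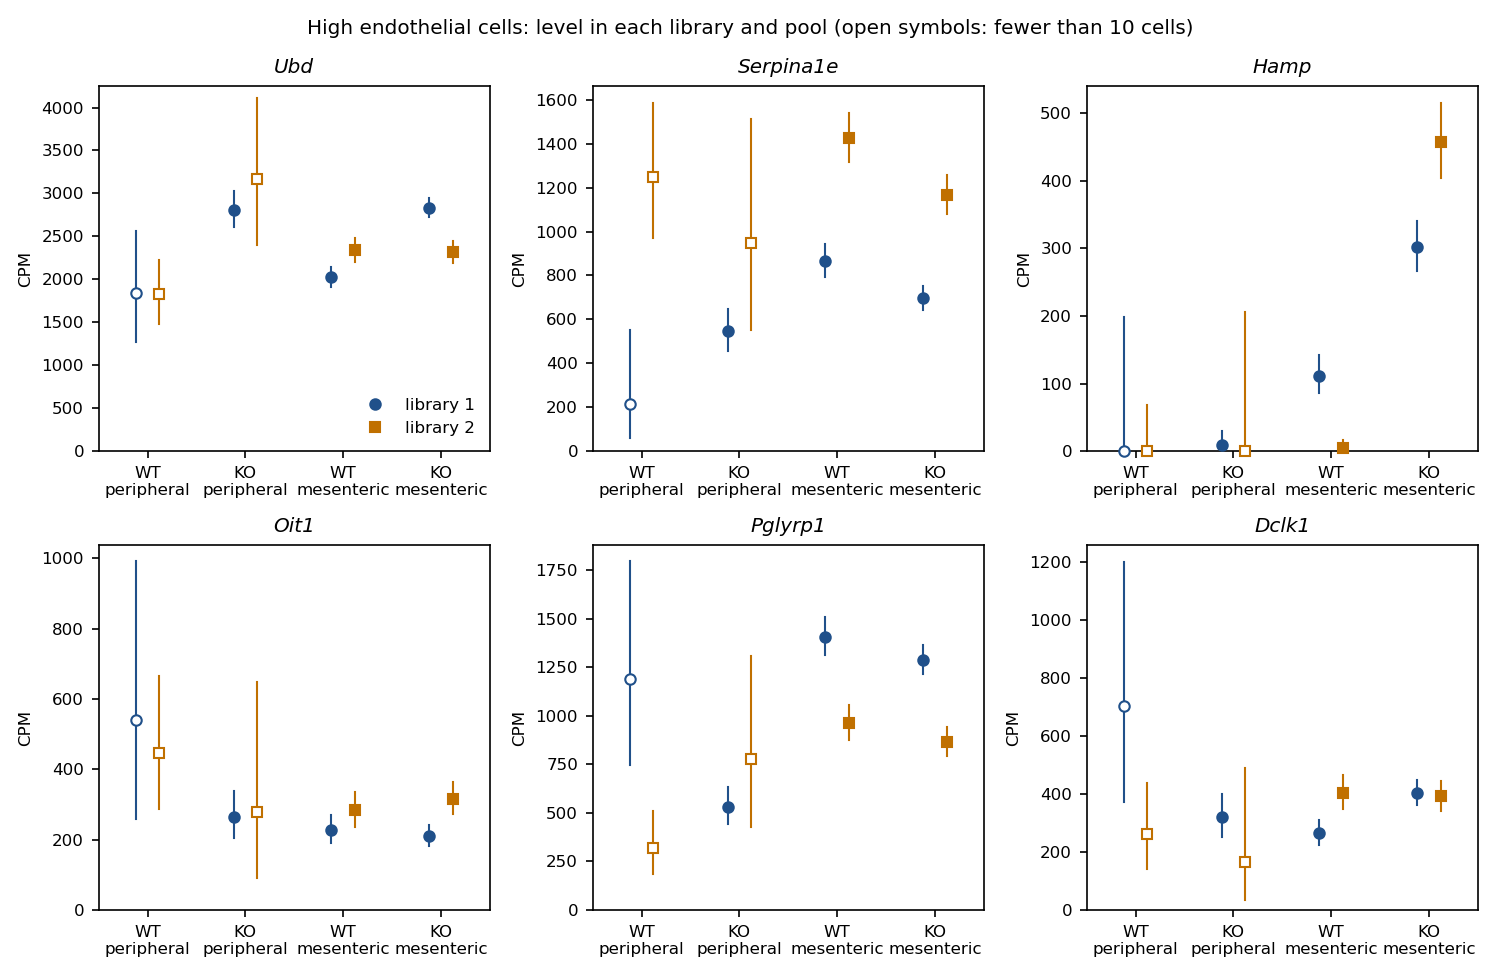
Level (CPM) of each gene in the high endothelial cells of each pool, for library 1 (circles) and library 2 (squares), with 95% exact Poisson intervals that cover counting error only. Open symbols are sums of fewer than 10 cells, all from peripheral nodes. Hamp is high in the Xbp1-KO mesenteric sums at 302 and 457 CPM.

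Oit1 was even across most pools. It stood at 228 and 283 CPM in WT mesenteric, 210.0 and 315 in Xbp1-KO mesenteric and 265 and 278 in Xbp1-KO peripheral cells of libraries 1 and 2. The WT peripheral sums were higher, at 540 and 448 CPM, but rest on 10 and 24 UMIs. Its log2 fold change was 0.03 ± 0.45 for Xbp1-KO against WT in mesenteric nodes (edgeR adjusted p = 0.9998) and 0.48 ± 0.36 for peripheral against mesenteric nodes (edgeR adjusted p = 0.756).

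Pglyrp1 was counted more in mesenteric than in peripheral cells, but not past the threshold. The mesenteric sums held 1405 and 962 CPM in WT and 1286 and 865 CPM in Xbp1-KO cells of libraries 1 and 2, and the peripheral sums held 1187 and 317 CPM in WT and 531 and 779 CPM in Xbp1-KO cells. The ranges overlapped through the WT peripheral sum of library 1, but within each library and genotype the peripheral sum was lower, in 4 of 4 pairs. With library as a block the difference did not pass the threshold. Pooled over genotypes and libraries the mesenteric level was 2.12 times the peripheral one (1.82 to 2.47, counting error only), while over the sums the log2 fold change was -0.96 ± 0.37 (edgeR adjusted p = 0.415). Over 8 fits with 1 sum left out, the adjusted p ran from 0.0270 to 0.862, and 1 fit passed the threshold. For the genotypes, again in mesenteric nodes, it was -0.08 ± 0.48 (edgeR adjusted p = 0.9998).

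Dclk1 showed no shift past the spread. It stood at 266 and 404 CPM in WT mesenteric, 403 and 391 in Xbp1-KO mesenteric, 702 and 261 in WT peripheral and 319 and 167 in Xbp1-KO peripheral cells of libraries 1 and 2. The highest value rests on 13 UMIs, and the groups overlapped in both tissues. Its log2 fold change was 0.26 ± 0.45 between genotypes in mesenteric nodes (edgeR adjusted p = 0.9998) and -0.11 ± 0.36 between tissues (edgeR adjusted p = 0.965).

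**Figure D4:**
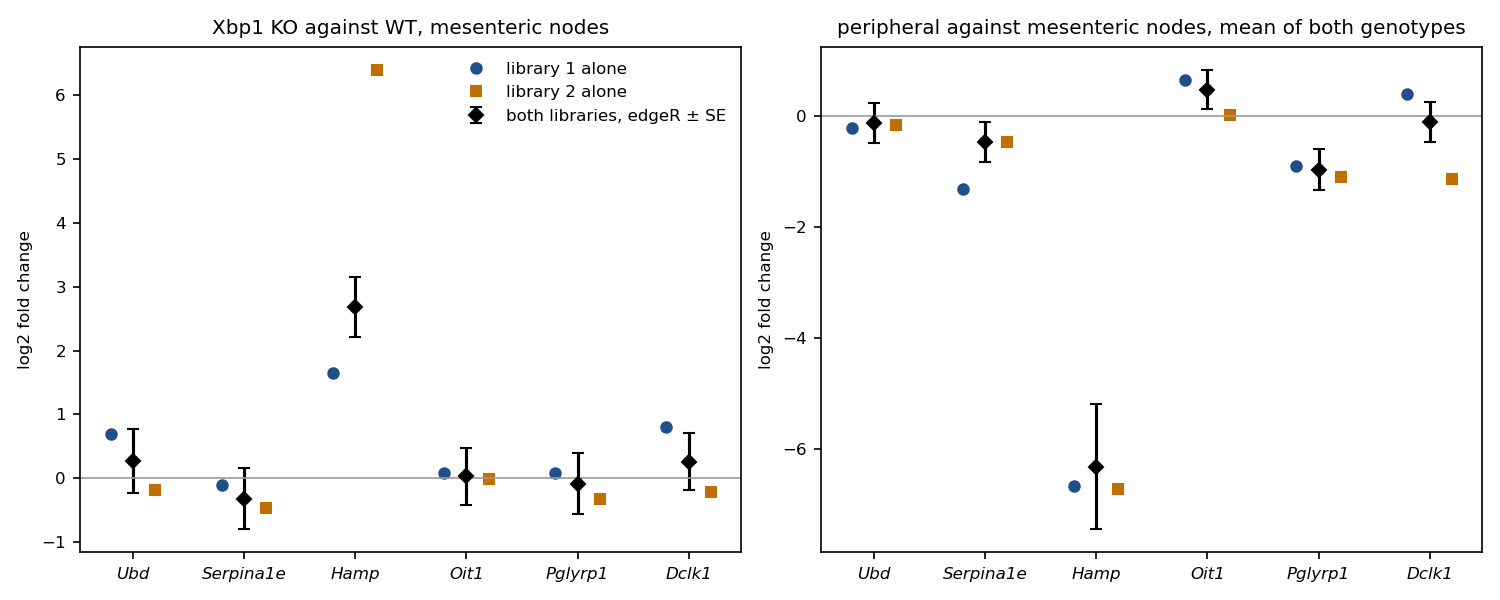
Log2 fold change of each gene, Xbp1 KO against WT in mesenteric nodes (left) and peripheral against mesenteric nodes (right). Diamonds are the edgeR fit over both libraries with its SE, and circles and squares are libraries 1 and 2 alone. Hamp stands away from 0 in both panels, at 2.68 and -6.32, with unlike values in the 2 libraries on the left.

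The lists of relatives and partners were read for the same comparisons. Of the FAT10 and immunoproteasome list 9 of 10 genes were tested, of the serpins 6 of 10, of the hepcidin pathway 11 of 23, of the FAM3 family 1 of 3, of the peptidoglycan recognition list 3 of 9 and of the doublecortin family 0 of 4. Between genotypes in mesenteric nodes 0 of these 30 genes were called, beside 9 of 4880 genes (0.184%). The largest values were Isg15 at 0.66 and Ube2z at -0.42 on the log2 scale in the FAT10 list, Serpina3n at -0.95 and Mcfd2 at -0.53 among the serpins and their partners, and Smad7 at 0.49 and Stat3 at 0.37 in the hepcidin list. Fam3c was at 0.10, Hspa1a at 0.48 and Nod1 at -0.08. Smad7 encodes an inhibitory SMAD that BMP signals induce, and Stat3 carries IL-6 signals to Hamp. The list medians were -0.19, -0.42 and -0.05, beside 0.00 over all genes.

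Between tissues 1 of the 30 genes was called, beside 14 of 4880 genes (0.287%). Hspa1a, a heat shock gene whose protein binds Pglyrp1, had a log2 fold change of -4.51 ± 0.60 for peripheral against mesenteric nodes (edgeR adjusted p = 7.62e-11), and Hspa1b, which is nearly identical and may share its reads, was called too. Both calls were lost with hashtags assigned by ratio and with the HE-like sub-clusters in place of the gate. None of the following passed the threshold: Isg15 was at -1.14 and Tap1 at -0.42, Serpina3n at -2.54 and Serpina3f at -1.13, Nod1 at -4.09 and Fam3c at 0.09. In the hepcidin list Smad4 was at -2.52 and Id1, a BMP target, at -1.31, also without passing it. The medians of the FAT10, serpin and hepcidin lists were -0.08, -0.72 and -0.20, beside -0.27 over all genes.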

How the data were processed

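The deposited matrices hold UMI counts per gene and hashtag counts per barcode, with no normalization. Per the submitters' processing notes they come from Cell Ranger 6.1 with mm10. Depth was 33024170 gene UMIs over 7709 barcodes in library 1 and 14744778 over 2903 in library 2. A cell needed at least 500 genes and no more than 10% of UMIs from mitochondrial genes. HTODemux (Seurat 5.3.0) assigned them to pools and removed barcodes with more than 1 tag, and Scrublet (scanpy 1.11.5, Python 3.11.15) removed a further 65 and 4 doublets, leaving 9275 cells. Scrublet marked 25.5% and 4.62% of the barcodes with more than 1 tag in libraries 1 and 2, so same-pool doublets may remain. Leiden clustering (resolution 1, 30 components, igraph 0.11.9) left out Glycam1, Ccl21a, Xbp1 and the 6 genes, and clusters were named from fixed markers. The cluster with the most gated cells was clustered once more on its own (resolution 0.5), which gave the HE-like sub-clusters. Glycam1 was among the HE-like markers, so the overlap of gate and sub-clusters is partly built in.

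Counts of gated cells were summed per library and pool and fitted in edgeR 4.0.16 (R 4.3.3; TMM, filterByExpr, robust quasi-likelihood) with 1 mean per group and 5 contrasts, with DESeq2 1.42.0 as an alternative. The fit was tested on simulated data first. The genes and lists were chosen with earlier results of these data known. Named genes were all 6 members, each list gene past the threshold or else the 2 tested genes with the largest change, and the 3 genes most like each member. Same-numbered sums share a library: their deviations correlated with r from -0.0114 to 0.192 over 6 pairs of pools, and library entered as a block in an alternative.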

Additional observations from a re-analysis of the deposited data

Results flagged for a closer look

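The genotype effect of Cxcl10, an interferon-induced chemokine gene, differed between the tissues by -3.74 ± 0.81 on the log2 scale (peripheral minus mesenteric, edgeR adjusted p = 0.0195, 2 sums per group). In mesenteric nodes its log2 fold change of Xbp1-KO against WT was 1.65 ± 0.41 (edgeR adjusted p = 0.0348). The difference between tissues was called in 3 of 9 other settings and in 2 of 8 fits with 1 sum left out. It was lost with library as a replicate block, with DESeq2, after thinning, in and inside the HE-like sub-clusters and without the filter on low counts. Cxcl10 is not one of the 6 genes, and the comparison rests on peripheral sums of 3, 5, 29 and 3 cells.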

How the results depend on the processing

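The direction of the excess of the 6 genes in high endothelial cells was fixed by their choice, so only its size is compared here. Leaving out gated cells in lymphatic clusters removed 0 cells and is not counted as a setting. The ratio moved most when the HE-like sub-clusters took the place of the gate, to 34.9 for Ubd, 112 for Serpina1e, 55.1 for Hamp, 179.7 for Oit1, 18.1 for Pglyrp1 and 30.9 for Dclk1, where the HE-like cells outside the gate are no longer in the denominator. After thinning it was 17.6 for Hamp, 43.8 for Oit1 and 20.4 for Dclk1. With 1 library left out it ran from 19.6 to 26.4 for Ubd, 29.3 to 50.9 for Serpina1e, 13.1 to 15 for Hamp, 25 to 37.4 for Oit1, 11.0 to 14.7 for Pglyrp1 and 15.7 to 17.3 for Dclk1.

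Counts of called genes moved as follows, and the cause was not tested. With DESeq2 they were 0 between genotypes in mesenteric nodes, 0 for the difference of genotype effects and 7 between tissues. With the HE-like sub-clusters they were 0 and 0 for the first 2 of these comparisons. After thinning, which leaves fewer genes tested, they were 2, 0 and 7. Without TMM 5 and 3 genes were called in mesenteric nodes and for the difference of effects, and with a stricter gate 5 in mesenteric nodes. With hashtags by ratio the counts were 1 for both tissues, 2 in peripheral nodes, 2 in mesenteric nodes, 4 for the difference of effects and 4 between tissues. Without a filter on low counts they were 14 in mesenteric nodes and 0 for the difference of effects. With library as a replicate block the difference of effects had 0 calls, mesenteric nodes 9 and tissues 16, and no call for the 6 genes changed. Inside the HE-like sub-clusters, an alternative added after seeing the data, the difference of effects had 0 calls. With 1 of the 8 sums left out, also added, the counts ran from 0 to 5 for both tissues, 0 to 4 in peripheral nodes, 3 to 15 in mesenteric nodes, 0 to 5 for the difference and 5 to 56 between tissues.

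Directions of values that never passed the threshold turned in 5 cases: in mesenteric nodes Dclk1 (-0.0513) and Oit1 (-0.36) after thinning and Pglyrp1 (0.0762) in the HE-like sub-clusters, and between tissues Dclk1 (0.34) in the HE-like sub-clusters and Ubd (0.0062) with DESeq2. With a sum or a library left out, mesenteric values ran from -0.22 to 0.80 for Dclk1, -0.17 to 0.23 for Oit1, -0.59 to 0.26 for Pglyrp1, -0.69 to 0.12 for Serpina1e and -0.19 to 0.69 for Ubd, and tissue values from -1.14 to 0.40 for Dclk1 and -0.0687 to 0.66 for Oit1. A library left out leaves no residual degrees of freedom, so such values have no test, and a lone sum is assumed to vary like the other groups. The peripheral sums of 3, 5 and 3 cells limit every tissue and peripheral comparison.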

Other observations

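The other genes called between genotypes in mesenteric nodes, beside Hamp, were 7 higher and 1 lower in Xbp1-KO cells. Those higher were Cxcl9 at 2.57 ± 0.41, Csrnp1 at 2.24 ± 0.48, Atf3 at 1.94 ± 0.45, Nfkbiz at 1.85 ± 0.46, Cxcl10 at 1.65 ± 0.41, Irf1 at 1.63 ± 0.40 and Tnfaip3 at 1.59 ± 0.40 (log2 fold change ± SE). Cxcl9, Cxcl10 and Irf1 are interferon-induced genes. Ubd, which interferon-gamma also induces, was at 0.27 ± 0.50 in the same fit and did not pass the threshold. Sparcl1 was lower, at -2.42 ± 0.49. DESeq2 and the HE-like sub-clusters in place of the gate called 0 genes, Hamp included. Without the WT mesenteric sum of library 2, 0 of the higher calls were left. Over 9 other settings, Cxcl9 was called in 7, Atf3, Csrnp1 and Sparcl1 in 5 each, Irf1 in 2, Cxcl10 and Nfkbiz in 1 each and Tnfaip3 in 0.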
